A study of Saccharomyces cerevisiae with 12 samples.

Results

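Budding yeast (Saccharomyces cerevisiae) grown with 0.5% glucose was compared with yeast grown with 1% glucose, the second of the 3 successive halvings of the sugar in a study of 4 levels from 0.25% to 2%. The comparison rests on the 3 arrays titled 0.5% glucose and the 3 arrays titled 1% glucose, 6 of the 12 arrays of the series, and its members were chosen by title alone. Each array was a one-colour Affymetrix array read with 1 total RNA sample that had been extracted with Trizol LS and labelled with biotin, and the series design calls the 3 arrays of a level biological replicates. The glucose level is the only difference between the groups that the labels give; the labels used here name no strain, medium, growth phase or time of sampling, and the word log in every title is not explained. The 3 arrays of 0.25% glucose entered the fit only to share its estimate of the spread and to set the neighbouring step beside this one, and the 3 arrays of 2% glucose only for the step before it. All 5498 probe sets with a signal above 0 and 1 listed yeast gene were tested, which stand for 5449 genes. A signal is the deposited linear intensity of a probe set, in arbitrary units scaled alike on every array. A difference is on the log2 scale, 0.5% minus 1%, so that a value above 0 means more signal at 0.5% glucose.

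Yeast takes up glucose through a family of hexose transporters (HXT genes) of low or high affinity, and chooses among them by the amount of glucose outside. The sensors Snf3 and Rgt2 act through Mth1, Std1 and the repressor Rgt1 on the transporter genes, while the Snf1 kinase and the repressor Mig1 hold genes for other carbon sources and for respiration silent as long as glucose is plentiful. Protein kinase A and the factors Msn2 and Msn4 tie stress and storage carbohydrate genes to the same signal. A signal averages all cells of a culture, so fewer cells with a transcript and less transcript per cell cannot be told apart.

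The arrays of both levels were alike in most technical measures, with 1 array standing apart. Log2 signals of the tested probe sets had a Pearson r between 0.983 and 0.991 across the 2 levels, between 0.986 and 0.990 among the 0.5% arrays and between 0.985 and 0.988 among the 1% arrays (across probe sets, which are not independent replicates). Signal at the 3' end over that at the 5' end, averaged on the log2 scale for 5 control genes, was 0.65 ± 0.04 at 0.5% and 0.63 ± 0.04 at 1% (SD, n = 3 each), and 17 probe sets for ribosomal RNA averaged 9.08 ± 0.63 and 8.92 ± 0.70 on that scale (exact permutation p = 0.6 and 0.9, two-sided, where 3 against 3 arrays can give no less than 0.1). At 2% glucose the same 3' to 5' measure was 0.91 ± 0.04. Replicate 1 at 1% glucose was dim at the brightest genes: over the 275 probe sets that make up the brightest 5%, the median signal was 4419, 4206 and 3940 at 0.5% glucose, against 3409, 4304 and 4267 at 1%. Those 275 probe sets had a median difference of 0.09, which became -0.03 without that array and 0.00 after quantile normalization, so lists of abundant transcripts are given below with and without it.

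Few transcripts passed the test at this step. By limma with Benjamini-Hochberg adjusted p under 0.05 over all 5498 probe sets, 4 were higher at 0.5% glucose (0.0728%) and 1 was lower (0.0182%), 5 in all (0.0909%). The 4 were TMA10, DDR2, HXT7 and HXK1, and the 1 was HXT1. The replicate numbers of the titles pair the arrays in the data, and with the number as a block 9 probe sets passed (0.164%), 6 higher (0.109%) and 3 lower (0.0546%): the same 5, with ALD4 and SIT1 higher and TIR1 and 1 of 2 probe sets of EFG1 lower. At an unadjusted p under 0.05 there were 194 probe sets (3.53%) without the block and 532 (9.68%) with it. These shares are the background for the counts of list members at that threshold given below.

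**Figure D1:**
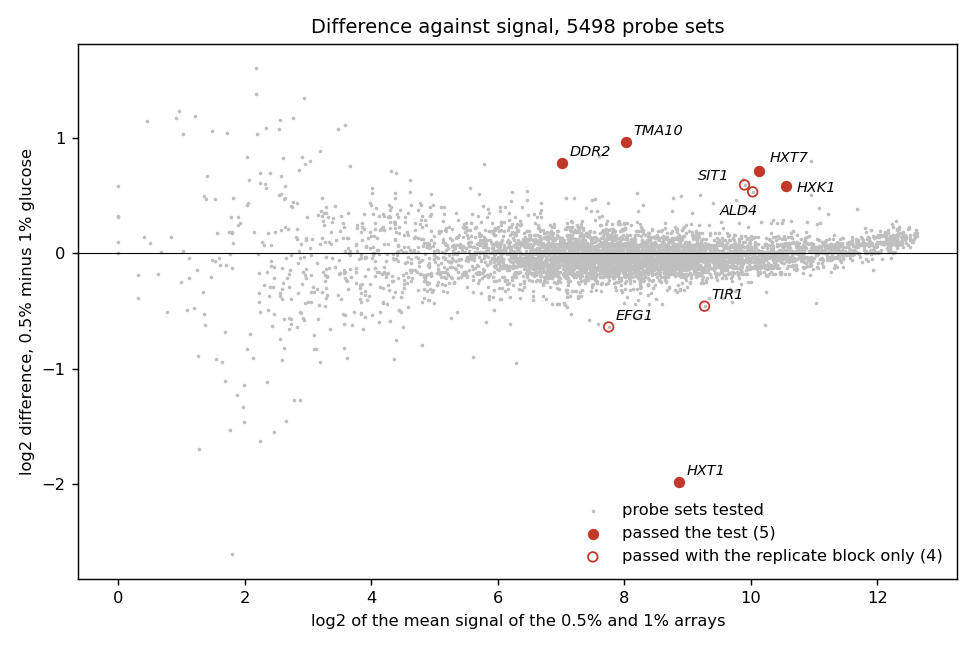
The log2 difference between 0.5% and 1% glucose (vertical axis) against the log2 of the mean signal of the 6 arrays (horizontal axis) for 5498 probe sets, 1 point each. The 5 filled points passed the test, the 4 open points passed only with the replicate block, and the cloud of grey points bends above 0 at its bright end, where replicate 1 at 1% glucose was dim.

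Most differences lay within narrow bounds. Of the 4123 probe sets above percentile 25 of the mean log2 signal (a signal of 109.7), the central 90% of differences, from percentile 5 to percentile 95, lay between -0.20 and 0.17 around a median of -0.02, and 3762 (91.24%) had a 95% confidence interval wholly within ±0.5. The median standard error was 0.11, and the smallest difference that passed without the block was 0.58. The 10 differences of at least 0.5 among these brighter probe sets belonged to TMA10, TIS11, FIT2, DDR2, HXT7, PHO89, SIT1, HXK1, ALD4 and HSP12, of which TIS11, FIT2 and SIT1 are genes of iron uptake and iron sparing. The 7 differences of -0.5 or less were those of HXT1, EFG1, the Ty element gene YAR009C, GAB1, PRM7, PDR12 and IMD2. Both sets were picked by the size of the difference, so their order is a description.

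HXT1, the low-affinity transporter that serves cells in abundant glucose, had the largest difference that passed. Its signal was 195, 182 and 182 on the 0.5% arrays, against 932, 655 and 649.7 on the 1% arrays. No array of one level came near the other, and the widest scatter was the high value of replicate 1 at 1%. HXT1 was 3.94-fold lower at 0.5% glucose (log2 difference -1.98, 95% confidence interval -2.33 to -1.63, limma adjusted p = 0.00019), and it stayed between -2.07 and -1.81 and past the threshold in each of the 23 alternative analyses that tested it. HXT3, the other low-affinity transporter of the list, read 1779.9, 1789 and 1784 at 0.5% glucose, against 2499.8, 2369.8 and 2337 at 1%. Its 3 arrays at 0.5% lay below all 3 at 1%, with a difference of -0.43 (-0.66 to -0.20) that did not pass (adjusted p = 0.51, and 0.068 with the block). Across all probe sets, 5.13% had every 0.5% array below every 1% array and 3.31% had the reverse, 8.44% in all.

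HXT7, a high-affinity transporter induced when glucose runs low, rose. It read 1306, 1487 and 1389.6 at 0.5% glucose, against 943.5, 839 and 779.6 at 1%, a 1.635-fold increase (0.71, 0.52 to 0.90, limma adjusted p = 0.0062). Leaving out replicate 2 at 1%, or replicate 2 or 3 at 0.5%, gave adjusted p values of 0.062, 0.087 and 0.054. The probe set can bind several transcripts and the near-identical HXT6 had none to itself, so the value may stand for both. HXT2, a transporter of higher affinity that is induced at low glucose, read 2569.7, 2658 and 2783 at 0.5% and 2204, 2086 and 2050.4 at 1%. The arrays did not overlap, and the difference of 0.34 (0.17 to 0.50) had an adjusted p of 0.37, and 0.069 with the block. HXT4 gave 525, 572 and 620.5 at 0.5% against 654, 424 and 399 at 1%. Replicate 1 at 1% was above all the other arrays here, and the interval of the difference, -0.22 to 0.72, spans 0. HXT5 was dim on all 6 arrays, at 18.9, 32.8 and 18.6 against 25.7, 20.1 and 13.8. Of the 7 higher-affinity transporter genes measured, HXT7 alone passed and 4 were above 0, beside 43.02% of all probe sets. Only 3 of the 7 had a signal above percentile 25, and the lowest difference was -0.37. Their median difference was 0.23, which was also the value of the dim HXT5, beside -0.02 over all probe sets. With 1 array left out that median lay between 0.12 (without replicate 3 at 1%) and 0.37 (without replicate 1 at 1%).

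**Figure D2:**
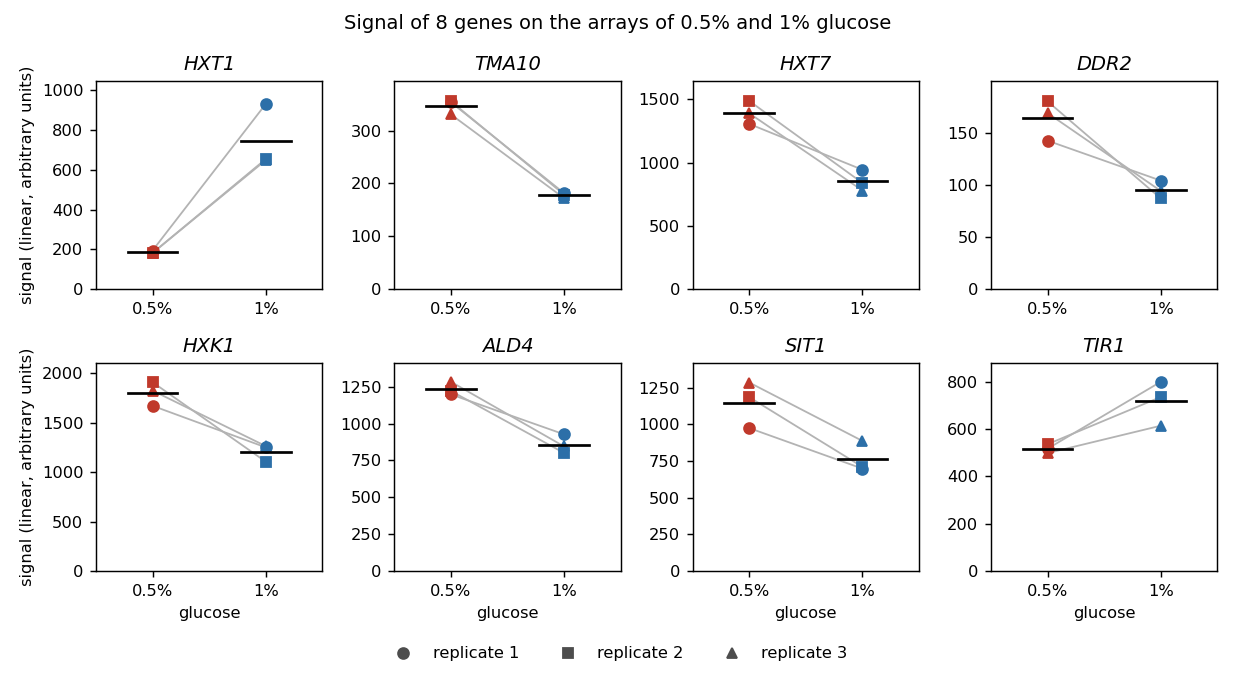
Signal (vertical axis, linear, arbitrary units) on the 3 arrays of 0.5% glucose (red, left) and the 3 arrays of 1% glucose (blue, right) for 8 genes. Symbols give the replicate number, grey lines join arrays of the same number and black bars are means. HXT1 and TIR1 lie lower at 0.5%, the other 6 genes higher, and in none of the 8 do the arrays of both levels overlap.

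Among the enzymes that phosphorylate glucose after uptake, only HXK1 passed. HXK1, the hexokinase whose gene is repressed by glucose, read 1672, 1911 and 1826 at 0.5% glucose, against 1251, 1105 and 1264 at 1%. The lowest 0.5% array lay above the highest 1% array, and the gene rose 1.49-fold (0.58, 0.39 to 0.77, limma adjusted p = 0.032). Its call was lost when 1 array was left out, with adjusted p = 0.059, 0.36 and 0.25 without replicate 1, 2 or 3 at 0.5%, and 0.27 and 0.091 without replicate 2 or 3 at 1%. HXK2, the hexokinase of glucose-grown cells that also takes part in glucose repression, had a difference of 0.09 (-0.14 to 0.32), which turned to -0.03 without replicate 1 at 1%. GLK1, glucokinase, differed by 0.27 (-0.01 to 0.54), and EMI2, a paralogue of GLK1, by 0.19. HXK1, GLK1 and EMI2 were each higher at 0.5% in every pair of same-numbered arrays, as were 10.7% of all probe sets, and 16.9% of all were lower in every pair.

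The transcripts of the sensing machinery differed little or too variably to pass. None of the 10 genes of the sensor and Rgt1 list passed (1 at an unadjusted p under 0.05, 3 with the block), and their median difference was 0.02. MTH1, a corepressor with Rgt1 whose own gene is repressed by glucose, read 120, 114 and 112 at 0.5% and 122, 79.1 and 65.9 at 1%. Its replicate 1 at 1% was as high as the 0.5% arrays, and the difference of 0.43 had an interval of -0.09 to 0.94. The sensor genes SNF3 and RGT2 had differences of 0.15 and -0.10, STD1 one of -0.15 and RGT1 one of 0.07. MIG2, a repressor induced by glucose, gave 351, 268 and 219.7 at 0.5% against 568, 353 and 260.1 at 1%. The pair differences were -0.70, -0.40 and -0.24, while the levels overlapped (adjusted p = 1.0, and 0.14 with the block). MIG3, its relative, was dim at 45.2, 29.4 and 28.4 against 79.5, 62 and 49.55, a difference of -0.90 (-1.47 to -0.33, adjusted p = 0.96, and 0.068 with the block).

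MIG1, the repressor that acts with Snf1, had a difference of 0.06 (-0.25 to 0.36) and SNF1, the kinase itself, one of -0.09 (-0.30 to 0.11). No gene of the 17 in the Snf1 and Mig1 list passed or had an unadjusted p under 0.05 with or without the block (limma), and their differences ran from -0.14 to 0.16. Of the 12 activators of derepressed genes none passed either (3 at an unadjusted p under 0.05, with or without the block), and those with the largest differences were dim. HAP4, the glucose-repressed activating subunit of the complex that drives respiratory genes, read 95, 101 and 119 at 0.5% and 66.1, 71.1 and 78.5 at 1%, a difference of 0.54 (0.17 to 0.91, adjusted p = 0.96, and 0.11 with the block). CAT8, an activator of gluconeogenic genes, differed by 0.51 (0.17 to 0.84), and ADR1, an activator of ethanol and fatty acid use, by 0.46 (0.13 to 0.79), both with arrays that did not overlap and both without passing. SIP4, another activator of that kind, was at signals between 4.28 and 8.16 at 0.5% and between 8.20 and 9.01 at 1%, near the floor.

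Of the 23 genes of alternative sugar and ethanol use that were measured, HXK1 was the only one to pass, and with the block ALD4 passed too. ALD4, the mitochondrial aldehyde dehydrogenase of ethanol use, gave 1198, 1222 and 1284 at 0.5% glucose, against 927, 800.4 and 845 at 1%. Every 0.5% array was above every 1% array, with a difference of 0.53 (0.33 to 0.73), an adjusted p of 0.078, and 0.0088 with the block. SUC2, the secreted invertase and a classical target of Mig1, differed by 0.07 (-0.28 to 0.43), and its sign turned to -0.01 without replicate 1 at 1% or replicate 2 at 0.5%. GUT2, the mitochondrial glycerol-3-phosphate dehydrogenase, differed by 0.28 (0.06 to 0.50, adjusted p = 1.0). The list's median was 0.07, between 0.02 without replicate 3 at 0.5% and 0.20 without replicate 1 at 0.5%. Of its 23 members 17 were above 0, beside 43.02% of all probe sets.

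Stress genes gave the largest rise that passed. TMA10, which encodes a small ribosome-associated protein, read 354, 355 and 330.5 at 0.5% glucose, against 182, 179 and 172 at 1%. Its 3 arrays lay close together at each level and the rise was 1.95-fold (0.96, 0.72 to 1.21, limma adjusted p = 0.0050). DDR2, a multistress gene controlled by Msn2 and Msn4, read 142, 180.1 and 169 against 104, 87 and 94.2, a 1.72-fold rise (0.78, 0.52 to 1.04, adjusted p = 0.032). Leaving out replicate 2 or 3 at 0.5% took the adjusted p of DDR2 to 0.36 and 0.25, and replicate 2 or 3 at 1% to 0.27 and 0.12. That of TMA10 was 0.059 without replicate 2 at 0.5%. HSP12, a membrane-protecting stress protein, gave 391.7, 298 and 350.4 at 0.5% against 245, 255 and 223 at 1%. Its arrays did not overlap, and its difference of 0.52 (0.23 to 0.81) did not pass (adjusted p = 0.63, and 0.12 with the block). TMA10 and DDR2 were the 2 of 24 general stress genes to pass. The list had a median of 0.12 with 18 members above 0 and 9 higher in every pair, against 43.02% and 10.7% of all probe sets. MSC1, another of its members, differed by 0.31 (-0.01 to 0.63). Of the regulators, MSN4, a dim transcript, differed by 0.40 (0.04 to 0.76, adjusted p = 1.0). MSN2, with a signal above percentile 25, differed by 0.05 (-0.16 to 0.26).

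Most genes of glycogen metabolism had differences above 0, though none of the 13 passed with or without the block (limma, 3 at an unadjusted p under 0.05 and 5 with the block). Of the 13, 11 were above 0 and 6 were higher in every pair, against 43.02% and 10.7% of all probe sets. The median was 0.19. It was 0.07 without replicate 3 at 0.5% and 0.30 without replicate 1 at 0.5%. GSY1, a glycogen synthase, read 142, 169 and 162 at 0.5% glucose, against 111.5, 113 and 115 at 1% (0.48, 0.26 to 0.70, adjusted p = 0.32, and 0.068 with the block). GLC3, the branching enzyme, read 194, 218 and 239 against 151, 154 and 163 (0.47, 0.24 to 0.71, adjusted p = 0.38). GPH1, the phosphorylase that breaks glycogen down, read 165, 206 and 202 against 139, 141 and 155 (0.39, 0.15 to 0.63, adjusted p = 0.95). These 3 genes had differences of like size and no overlap between the levels, but they were picked by the size of the difference. The list ran from -0.38 to 0.48, and from -0.05 among its brighter members. Of its 13 genes 4 were higher without overlap, beside 3.31% of all probe sets. PGM2, a phosphoglucomutase, differed by 0.23 (-0.00 to 0.46). Of the 7 trehalose genes none passed (1 at an unadjusted p under 0.05, 3 with the block), the largest difference was 0.36 for TSL1, a subunit of trehalose synthase, and NTH2, a trehalase, had 0.25.

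The iron regulon, the genes that the factor Aft1 turns on when cells are short of iron, had the highest median difference of any list with at least 10 members, 0.25 over 31 genes, and it was 0.28 after quantile normalization and between 0.17 and 0.34 with any 1 of the 6 arrays left out. No member passed without the block and SIT1 passed with it, while 11 members reached an unadjusted p under 0.05 and 16 did so with the block. In 27 of the 31 the difference was above 0, in 17 it was above 0 in every pair of arrays, and in 11 the levels did not overlap. Over all probe sets, 3.53% had an unadjusted p under 0.05, in either direction, and 9.68% had one with the block. Of the same probe sets, 43.02% were above 0, 10.7% were above 0 in every pair and 3.31% were higher without overlap. The list was chosen with earlier results of these data known. The siderophore transporters, which carry iron bound to secreted chelators of other organisms, were among them. SIT1 read 975, 1186 and 1286 at 0.5% glucose, against 698, 710.0 and 887 at 1% (0.59, 0.29 to 0.89, adjusted p = 0.40, and 0.027 with the block). ENB1 read 608, 697 and 765 against 466, 448 and 551, a difference of 0.50 (0.17 to 0.82), and ARN1 had 0.48 (0.15 to 0.80).

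FIT2, a cell wall mannoprotein that helps to retain siderophore iron, had the next difference after TIS11 in size, at 2327, 2741 and 2483 against 1436, 1356 and 1539.5. The levels did not overlap and its difference was 0.80 (0.40 to 1.20, adjusted p = 0.38, and 0.068 with the block). FIT3, its neighbour on chromosome XV, had 0.39 (0.09 to 0.70). In the reductive uptake system, FET3, the multicopper oxidase, read 1929, 2329 and 2686 at 0.5% and 1383, 1605 and 1928 at 1%. Its difference was 0.50 (0.16 to 0.83, adjusted p = 0.96, and 0.05 with the block, neither of which passed). CCC2, the copper transporter that loads Fet3, had a difference of 0.42 (0.14 to 0.69). FTR1, the permease that works with Fet3, had 0.29 (-0.04 to 0.61), an interval that overlaps both. FET3 gave almost the same difference in each pair, 0.48, 0.54 and 0.48, although the arrays of each level varied, since same-numbered arrays were high or low together.

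TIS11, an RNA-binding protein that degrades transcripts of iron-using proteins, showed the same feature more strongly. It read 185, 212 and 344 at 0.5% glucose, against 102, 116 and 199.7 at 1%, so that the levels overlap, while the pair differences were 0.86, 0.87 and 0.79 (mean 0.84, 0.08 to 1.60, adjusted p = 1.0, and 0.093 with the block). HMX1, a heme oxygenase that frees iron, was dim and differed by 0.77 (0.41 to 1.13). AFT1 differed by 0.26 (0.04 to 0.47) and its paralogue AFT2, also dim, by -0.14 (-0.46 to 0.18). ENB1, ARN1, CCC2, FIT3, FTR1, HMX1, AFT1 and AFT2 were picked for naming after their values were seen.

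**Figure D3:**
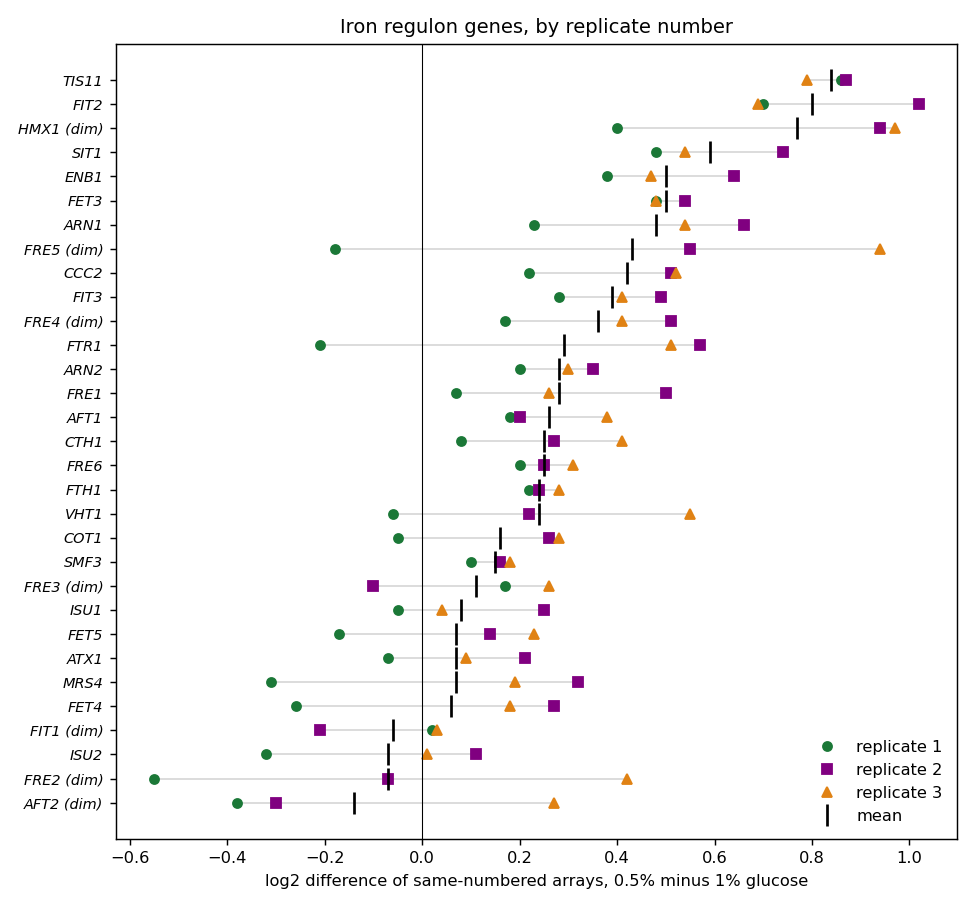
Log2 differences (horizontal axis, 0.5% minus 1% glucose) of the 31 measured iron regulon genes between arrays of the same replicate number, with the mean as a black tick. Genes marked dim are at or below percentile 25 of the signal. Of the 31 means, 27 lie above 0, and for 17 genes all 3 pairs do, against 43.02% and 10.7% of all probe sets. Replicate 1 is most often the lowest, the pair whose median over the probe sets above percentile 25 was -0.12.

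No gene of the phosphate, cell wall, sulfur and NAD synthesis lists passed, with or without the block. PHO89, a sodium-phosphate symporter, read 953, 1307 and 1191 at 0.5% glucose, against 899, 696 and 628 at 1%. Pair 1 differed by only 0.08 while pairs 2 and 3 differed by 0.91 and 0.92, and the mean of 0.64 (0.34 to 0.94) had an adjusted p of 0.32, and 0.068 with the block. No member of the 24 in the phosphate list passed (1 at an unadjusted p under 0.05, 2 with the block), and the list's median was 0.02. GSC2, a glucan synthase of the cell wall, gave 881, 1102 and 1027 against 777, 776 and 640.0. Its difference was 0.46 (0.23 to 0.69, adjusted p = 0.38, and 0.05 with the block, neither of which passed). Among 30 sulfur and methionine genes none passed (4 at an unadjusted p under 0.05, 6 with the block), and the brighter members with the largest differences were MET2, of methionine synthesis, at 0.48 (0.15 to 0.81) and MET14, of sulfate assimilation, at 0.35. Of 20 genes of NAD synthesis and sirtuins none passed (2 at an unadjusted p under 0.05, with or without the block). Their median was -0.02 and 10 were above 0, beside 43.02% of all probe sets. PNC1, the nicotinamidase, differed by 0.26 (0.10 to 0.41, adjusted p = 0.95). Other brighter members had the opposite sign, with -0.25 (-0.49 to -0.01) for BNA4, -0.11 for TNA1 and -0.10 for HST1.

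The respiratory machinery had differences near 0 at this step. None of the 23 genes of the tricarboxylic acid cycle and pyruvate dehydrogenase passed (0 at an unadjusted p under 0.05, 3 with the block), with differences from -0.10 to 0.20 around a median of 0.02. In this list CIT1, citrate synthase, differed by 0.15 (-0.06 to 0.36) and MDH1, malate dehydrogenase, by 0.15 (-0.01 to 0.31). None of the 23 respiratory chain genes passed either (0 at an unadjusted p under 0.05, 1 with the block), and their range was -0.17 to 0.17. NDE1, the external NADH dehydrogenase, had 0.17 (-0.05 to 0.39) and COX8, a cytochrome oxidase subunit, had -0.17 (-0.46 to 0.11). Among 17 ATP synthase genes the median was 0.08 and none passed (1 at an unadjusted p under 0.05, 2 with the block): INH1, the inhibitor of ATP hydrolysis, had the largest difference, 0.36 (0.12 to 0.59), and ATP7, a subunit of the stalk, had 0.17. For these lists, the intervals of the members named here exclude a doubling, a log2 difference of 1, in either direction.

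Glycolytic and ribosomal protein transcripts, among the brightest probe sets, had differences that depended on a single array. The 10 measured genes of lower glycolysis had a median of 0.16, which became -0.01 without replicate 1 at 1% glucose, and none passed (limma; 1 at an unadjusted p under 0.05 with or without the block). TDH3, the main glyceraldehyde-3-phosphate dehydrogenase, read 6528, 6046 and 6131 at 0.5%, against 4033, 6333 and 5954 at 1%, and CDC19, the main pyruvate kinase, read 6242, 6126 and 6141 against 4341, 6329 and 6104. In both genes 5 arrays were alike and replicate 1 at 1% was low. GPM1, phosphoglycerate mutase, repeated this with 6657, 6518 and 6414 against 4451, 6885 and 6364. PYK2, the pyruvate kinase isoenzyme repressed by glucose, differed by 0.25 (0.00 to 0.49).

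The 128 cytosolic ribosomal protein genes had a median of 0.09 with 113 members above 0, beside 43.02% of all probe sets. The median was -0.01 after quantile normalization. It was -0.04, with 35 members above 0, without replicate 1 at 1%, where 2894 of all 5498 probe sets were above 0. None passed (0 at an unadjusted p under 0.05, 4 with the block). RPL18B and RPS8A, with 0.23 each, had the highest values of the list, and in both replicate 1 at 1% was the lowest array. Both values came from probe sets that can bind several transcripts. The other probe set of each gene gave -0.09 (-0.33 to 0.16) for RPL18B and 0.07 (-0.16 to 0.31) for RPS8A. RPL41A, also read by a probe set that can bind several transcripts, had the lowest value, -0.39 (-0.83 to 0.05). It read 638, 644 and 410.5 against 635, 736.5 and 808.5. The 83 ribosome biogenesis genes had a median of -0.12 with 4 members above 0 and 32 lower in every pair, against 43.02% and 16.9% of all probe sets. The median was -0.09 after quantile normalization and -0.03 without replicate 1 at 1%, where 28 members were above 0. None passed (1 at an unadjusted p under 0.05, 18 with the block, beside 3.53% and 9.68% of all probe sets). DBP3, an RNA helicase of ribosome assembly, read 954, 966 and 904 at 0.5% and 1118, 1126 and 1120.1 at 1% (-0.25, -0.43 to -0.08, adjusted p = 0.96), whereas DIP2, of the small subunit processome, rested on replicate 1 at 1% with 587, 548 and 573 against 832, 656 and 566.5. The 37 genes of RNA polymerases I and III had a median of -0.06, which was 0.03 without that array, and RPC10, a subunit shared by the polymerases, had -0.19 (-0.43 to 0.04).

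**Figure D4:**
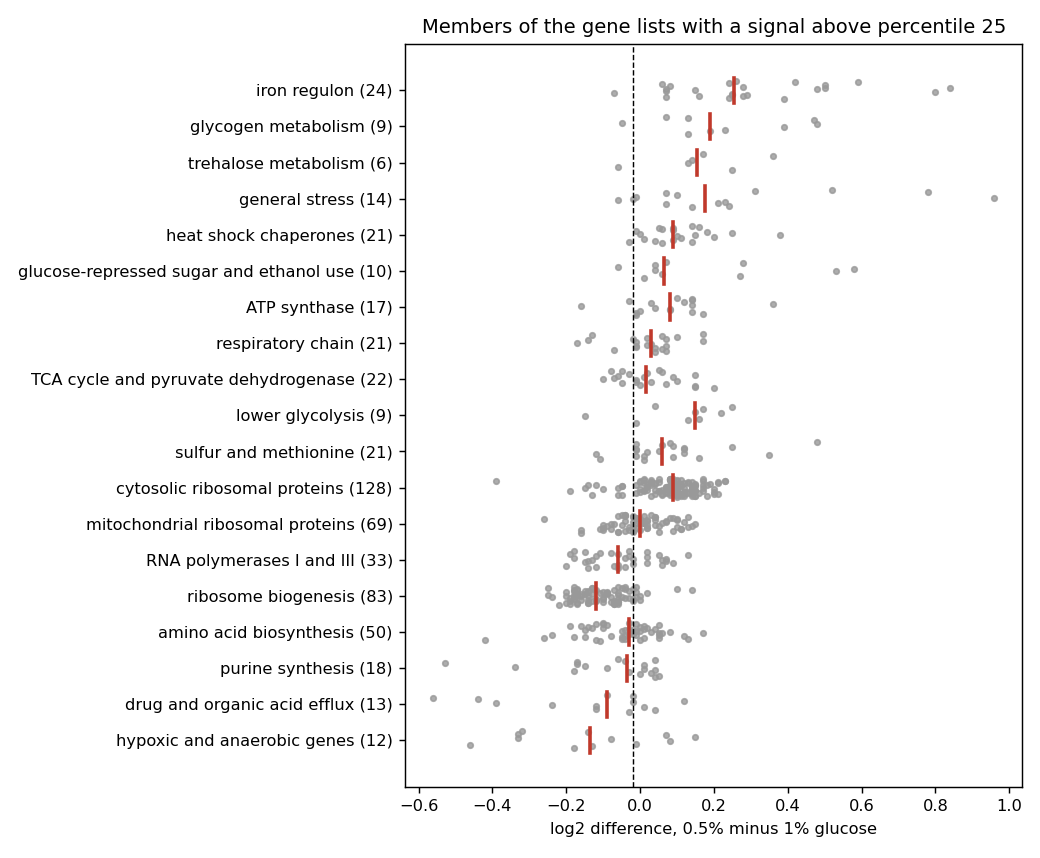
Log2 differences (horizontal axis, 0.5% minus 1% glucose) of the members of 19 gene lists with a signal above percentile 25, 1 point a gene, with the number of such members in brackets. Red bars are list medians and the dashed line is the median of all probe sets, -0.02. Single members of the iron, glycogen, general stress and glucose-repressed lists reach past 0.4, and the medians of cytosolic ribosomal proteins and ribosome biogenesis are 0.09 and -0.12.

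Chaperones, which assist protein folding, included none of 22 that passed (2 at an unadjusted p under 0.05, 3 with the block), with a median of 0.09 that became 0.00 without replicate 1 at 1% glucose. SSA1, a cytosolic Hsp70, read 3482, 3652 and 3915 against 2203, 3111 and 3288 (0.38, 0.01 to 0.75, adjusted p = 1.0), and its difference was 0.20 without replicate 1 at 1%. HSF1, the heat shock factor, differed by 0.20 (0.01 to 0.39).

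TIR1 was the only lower call in the lists of anaerobic growth and of efflux, and only with the block. Among 21 hypoxic and anaerobic genes none passed without the block (7 at an unadjusted p under 0.05). TIR1 passed with it (8 at an unadjusted p under 0.05). The shares of all probe sets at that unadjusted threshold were 3.53% without the block and 9.68% with it. The list's median was -0.13, between -0.21 without replicate 3 at 0.5% and -0.06 without replicate 1 at 1%. Of its members 9 were lower in every pair, as were 16.9% of all probe sets. TIR1, a cell wall mannoprotein of cold and anaerobic growth, read 517.5, 536.5 and 499 at 0.5% glucose, against 801, 736 and 615 at 1% (-0.46, -0.69 to -0.24, adjusted p = 0.37, and 0.013 with the block). AAC3, the anaerobic ADP/ATP carrier, had -0.33 (-0.61 to -0.05), TIR3, of the same mannoprotein family as TIR1, had -0.33 (-0.64 to -0.01), and ANB1, a translation factor gene of hypoxic cells, had -0.32 (-0.58 to -0.06).

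Among 22 genes of drug and organic acid efflux none passed (2 at an unadjusted p under 0.05, 4 with the block). Of these 10 were lower in every pair, beside 16.9% of all probe sets, and the median was -0.12. It was -0.20 when replicate 3 at 0.5% was left out and -0.03 when replicate 1 at 0.5% was, with 8 members above 0 in place of 4. Over all 5498 probe sets, 2744 were above 0 without replicate 1 at 0.5%, in place of 43.02%, or 2365. PDR12, an exporter of weak organic acids, read 179.6, 259 and 274 at 0.5% glucose, against 339, 345 and 349 at 1% (-0.56, -0.88 to -0.24, adjusted p = 0.64, and 0.050 with the block). Its 1% arrays were nearly equal while replicate 1 at 0.5% was far below the others of its level. TPO1, a polyamine exporter, had -0.39 (-0.66 to -0.13, adjusted p = 0.96), and AQR1, an exporter of acids and amino acids, had -0.44 (-0.94 to 0.05) with a high replicate 1 at 1%.

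Biosynthetic lists had medians near 0. In purine synthesis ADE17, which completes the formation of IMP, read 1062, 1089 and 1048 at 0.5% glucose, against 1417, 1418 and 1224 at 1% (-0.34, -0.52 to -0.16, adjusted p = 0.43, and 0.065 with the block). ADE13, adenylosuccinate lyase, had -0.18 (-0.33 to -0.02). IMD2, an IMP dehydrogenase read by a probe set that can bind related genes, had -0.53 (-1.19 to 0.13). The median of the 19 genes was -0.03 and none passed (3 at an unadjusted p under 0.05, 5 with the block). In amino acid synthesis the 54 genes measured also had a median of -0.03 with none passing (3 and 7 in the same counts): GLT1, glutamate synthase, read 712, 770.1 and 663 against 911, 1016 and 938 (-0.42, -0.69 to -0.15, adjusted p = 0.96, and 0.069 with the block), and LYS2, of lysine synthesis, had -0.26 (-0.47 to -0.04). ADH4, an alcohol dehydrogenase isoenzyme, had -0.31 (-0.52 to -0.10, adjusted p = 0.96).

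Of the 47 lists in all, 6 held a gene that passed and 8 held one with the block. Of the 40 lists with at least 10 measured members, 37 had a median within ±0.15, and the medians ran from -0.13 to 0.25.

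The neighbouring steps are given for the genes that passed and for a few others. HXT1 had mean signals of 59.6, 186, 746 and 1350.3 at 0.25%, 0.5%, 1% and 2% glucose, so its differences were -0.88 at the first halving, -1.98 at the second and -1.67 at the third. HXT7 had 2275, 1394, 854 and 345 at the same levels, with 1.31, 0.71 and 0.71 for the 3 halvings. TMA10 had 762, 346.5, 177.5 and 96.6, with 0.88, 0.96 and 1.12, and HXK1 had 2570.5, 1803, 1206.5 and 528, with 1.20, 0.58 and 0.51. TMA10 thus had differences of like size at each halving, while HXT7 and HXK1 had their largest at the first. These steps share the arrays of 1% or of 0.5% glucose with the one described here, and the 2% arrays differ in their controls.

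Among the iron genes, FIT2 averaged 2380.1 ± 738 at 0.25%, 2517 ± 209 at 0.5%, 1444 ± 92 at 1% and 1232 ± 98.1 at 2% (SD, n = 3 each), with 0.23, 0.80 and -0.13 for the 3 halvings. SIT1 had 0.40, 0.59 and 0.12, FET3 had 0.37, 0.50 and -0.04, and the medians of the whole iron list were 0.07, 0.25 and 0.03. The third values varied with the array left out. Replicate 2 at 0.25% was the lowest array of its level for FIT2 (2984, 1557 and 2599), SIT1, FET3 and TIS11. Without it the third difference was 0.15 for FIT2, 0.25 for SIT1, 0.08 for FET3 and 0.14 for the median of the list. Without replicate 1 or 3 at 0.25%, it was -0.32 or -0.22 for FIT2, 0.06 or 0.04 for SIT1 and -0.04 or -0.16 for FET3. The median of the list was then -0.04 or -0.02. TIS11 had 0.57, 0.84 and 0.13, and the last of these was 0.54 without replicate 2 at 0.25% and 0.02 or -0.19 without replicate 1 or 3. HXT2 had 0.81, 0.34 and 0.09. HXT3 ran the other way, with 0.03, -0.43 and -0.76.

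**Figure D5:**
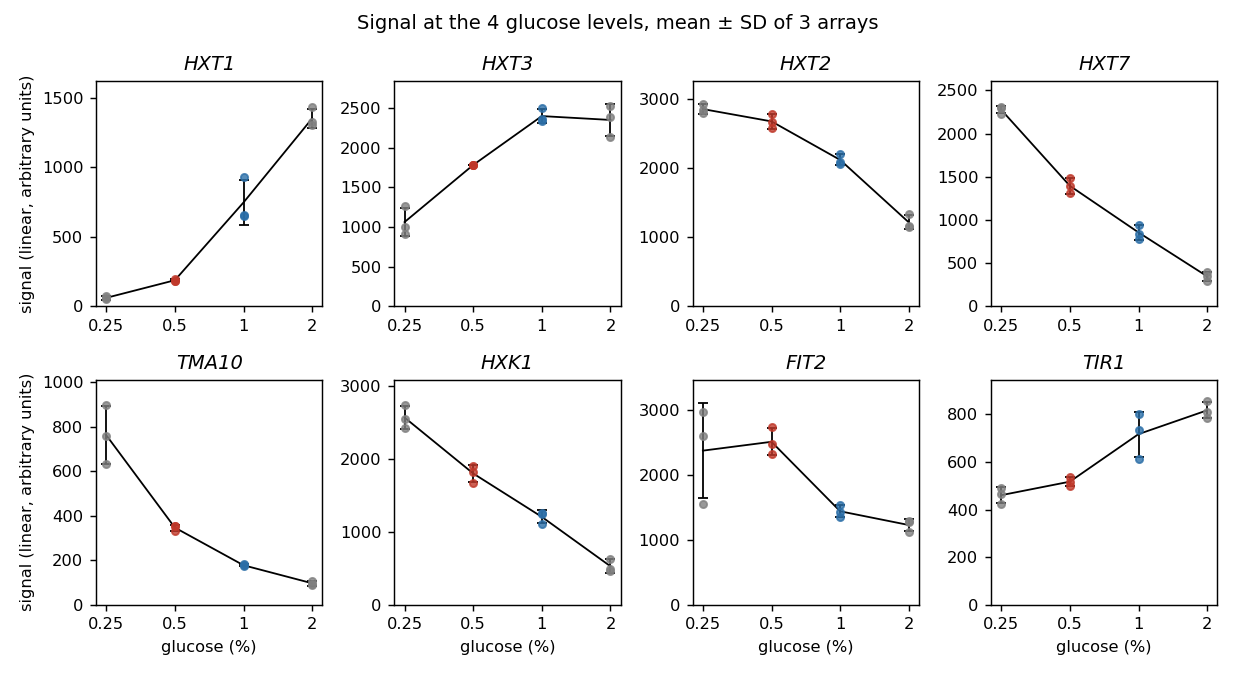
Signal (vertical axis, linear, arbitrary units) against glucose level (horizontal axis, evenly spaced levels in percent) for 8 genes, with points for arrays and the mean ± SD of 3 arrays per level. The 0.5% arrays are red and the 1% arrays blue. HXT1 climbs with glucose and HXT3 climbs up to 1%, with means of 2402.2 at 1% and 2353.3 at 2%. HXT7, TMA10 and HXK1 decline, and FIT2 scatters widely at 0.25%.

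Tests of the difference between steps called almost nothing. For the second halving against the third, limma on the same 9 arrays called 0 of 5498 probe sets (0%) with 114 at an unadjusted p under 0.05 (2.07%), and 0 with the block, with 373 (6.78%). FIT2 differed between these steps by 0.93 (0.24 to 1.63, adjusted p = 1.0, and 0.62 with the block) and HXT3 by 0.33 (-0.07 to 0.73). For the second halving against the first, fitted on all 12 arrays, 0 passed (111 at an unadjusted p under 0.05, 2.02%), and with the block HXT1 alone passed (0.0182%), with 292 at an unadjusted p under 0.05 (5.31%). The difference of HXT1 was lower by 1.10 on the log2 scale at the second halving than at the first (-1.10, -1.66 to -0.55, adjusted p = 1.0, and 0.049 with the block). HXT7 had -0.60 (-0.99 to -0.21) and HXK1 had -0.62 (-1.04 to -0.21) in the same test, neither of which passed, while TMA10 had 0.08 (-0.36 to 0.52).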

How the data were processed

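One-colour arrays measured total RNA of yeast, 3 arrays for each of 4 glucose levels. The deposited values are intensities, 1 summarised signal per probe set, that the authors had already scaled: the mean without the lowest and highest 2% of the signals above 0 is 500.0 on each array. No label names the summarising program. Scaling to 1 mean hides a change in total RNA per cell. Of 10928 probe sets, 5028 were at 0 on every array. The 5498 with 1 listed gene in the platform table were tested (128 of a type shared between transcripts), and 402 above 0 had no listed gene. Signals were floored at 1 and taken to log2. limma 3.58.1 (R 4.3.3) fitted a mean per level over the 9 arrays of 1%, 0.5% and 0.25%, with the variance prior trended on intensity, two-sided tests and Benjamini-Hochberg adjustment. The fit was also run on simulated data with independent arrays and differences larger than most of those seen here. That run cannot show how the fit behaves with paired arrays or with small differences. For lists, a gene's brightest probe set was used.

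The arrays compared were chosen by title, but the 47 gene lists, their genes and the tests were chosen with earlier results of these data known. Lists are described by counts and medians only. Genes were named by a rule: those that passed, those that passed with the block without overlap of arrays, up to 4 brighter members of each list by size, and glucose signalling genes; 11 others (ENB1, ARN1, CCC2, FIT3, FTR1, HMX1, AFT1, AFT2, YAR009C, GAB1 and PRM7) were added after their values were seen. Deviations of same-numbered arrays from their level means correlated with r of 0.21, 0.24 and 0.22, so the numbers were taken to pair the arrays. Each array also correlated best with its own number. That adds little, because deviations from a level mean cancel out across its arrays. Values with the replicate number as a block stand beside results that they change. The number of arrays limits the precision. Medians of lists and differences at the third halving with 1 array left out were added after seeing the data.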

Additional observations from a re-analysis of the deposited data

Results flagged for a closer look

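HXT1 differed between 2 steps of the same kind when the replicate number was a block. Its log2 difference at the second halving, from 1% to 0.5% glucose, was larger than that at the first, from 2% to 1%, by -1.10 (95% confidence interval -1.66 to -0.55 without the block). The adjusted p over 5498 probe sets was 0.049 with the block and 1.0 without it (limma, unadjusted p = 0.00073 without it). Mean signals were 186, 746 and 1350.3 at 0.5%, 1% and 2% glucose. The 2% arrays had a 3' to 5' control ratio of 0.91 ± 0.04, against 0.65 ± 0.04 at 0.5% and 0.63 ± 0.04 at 1% (SD, n = 3 each), and the part of that difference in this result was not tested.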

How the results depend on the processing

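HXT1 passed in all 23 alternatives that tested it, TMA10 in 22 of 24, HXT7 in 20 of 24, DDR2 in 15 of 23 and HXK1 in 14 of 24, each with the direction kept. The 4 probe sets higher and 1 lower became 6 and 3 with the replicate block, 10 and 9 with the replicate block and a dim filter at percentile 25, 10 and 8 with the block over all 12 arrays, 25 and 9 with the block and quantile normalization (these last 2 were chosen after seeing the data), and 35 and 10 with array weights. Without the intensity trend 0 were higher, and with a dim filter at percentile 50, which leaves HXT1 out, 0 were lower. Leaving out 1 array gave 0 to 6 higher and 1 lower. Without replicate 2 at 0.5% glucose HXT1 alone passed, without replicate 3 at 0.5% or replicate 2 at 1% HXT1 and TMA10, and without replicate 3 at 1% HXT7 as well. For the second halving against the first, the replicate block moved the lower calls to 1. The block changed no other call between steps. Genes that did not pass changed sign when 1 array was left out, with ranges of -0.03 to 0.16 for HXK2, -0.02 to 0.29 for GPM1, -0.01 to 0.26 for CDC19, -0.04 to 0.44 for HXT5, -0.02 to 0.14 for RGT1, -0.01 to 0.22 for SUC2, and -0.01 to 0.13 for MIG1, which was also -0.01 with array weights. The causes were not tested.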

Other observations

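Some neighbours of the genes that passed are given, among those that had a probe set. HXT1 lies on chromosome VIII near HXT4 (0.25, -0.22 to 0.72) and HXT5 (0.23, -0.42 to 0.88), whose differences had the opposite sign to its own. HXT7 and HXT3 lie near each other on chromosome IV with differences of 0.71 and -0.43. YDR341C, next to HXT7, had -0.01, and RPN12, next to HXK1 on chromosome VI, had -0.04. The neighbours of DDR2 on chromosome XV, AIM39 and SPE2, had differences of -0.00 and -0.07, and those of TMA10 on chromosome XII, YLR326W and NMA1, had -0.17 and -0.09.

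EFG1, a gene of ribosomal RNA processing, had 2 probe sets that did not give the same result. One read 203, 176 and 129 at 0.5% glucose, against 318, 243 and 225 at 1% (-0.64, -1.09 to -0.18, adjusted p = 0.0088 with the block and 1.0 without). The other read 244, 200.4 and 169 against 292.5, 219 and 194.5 (-0.20, -0.63 to 0.23, adjusted p = 0.47 with the block). YAR009C, the Ty element gene, read 1198, 1107 and 607 at 0.5% glucose, against 1397, 1364 and 1535 at 1%, so its difference of -0.62 (-1.07 to -0.17) is largest for replicate 3.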
